A study of Mus musculus with 2 samples.

Results

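The 37 genes described here act in G2 and mitosis, the last stages of the cell division cycle. They were taken by symbol from the gene rows of both count matrices, and all 37 of 37 were found among the 31055 genes listed. CD45, a surface protein of leukocytes, was used to sort the cells, and their source was squamous cell carcinoma grown under the skin of FVB mice. Each tumour was a mosaic of the coinjected carcinoma lines CIT6, marked with YFP, and CIT9, marked with RFP, and no treatment was given. The 2 samples form a single group and keep the names replicate 1 and replicate 3 that the labels give them. Light-printed oligonucleotide codes (ZipSeq) had marked regions of the tumour sections before digestion with collagenases I and IV. Sex, age and the number of animals are not in the labels, so the p-values below do not reach beyond these 2 samples. They measure how far differences between cell classes varied from 1 sample to the other, pooled over all classes fitted.

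Cells entering mitosis activate the kinase Cdk1 with its A and B cyclins, condense their chromosomes, build a spindle and attach each chromosome to it through the kinetochore. A checkpoint then holds back the ubiquitin ligase APC/C until all chromosomes are attached, after which securin and the B cyclins are destroyed and the cell divides. Most genes of this programme are transcribed in G2 under the MuvB, B-Myb and FoxM1 factors, and their mRNAs are scarce in resting cells, so they are widely used to find dividing leukocytes. Tissue macrophages can divide in place, T cells divide after activation, and mature neutrophils do not divide.

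Cells were classed by the transcripts of a few marker genes, none of them a member, because no deposited cell annotation was used. C1q macrophages had Csf1r, the receptor for macrophage growth factor, and C1qa, C1qb and C1qc together at 10 or more per 10000 UMIs (unique molecular identifiers, which count captured mRNA molecules). Ly6c2 monocytes had Ly6c2 at 2 or more UMIs and Csf1r with low C1q, and cells with both signals are called double-positive. T cells had Cd3e, NK cells had Ncr1, and conventional dendritic cells had Flt3 with Xcr1, Clec9a, Cd209a, Zbtb46 or Ccr7. Replicates 1 and 3 held 2907 and 3084 C1q macrophages, 20 and 92 double-positive cells, 68 and 333 monocytes, 53 and 76 conventional dendritic cells, 381 and 702 T cells, and 106 and 203 NK cells. Plasmacytoid dendritic cells (12 and 156) and neutrophils (310 and 27) were described but not tested. Median depth was 18945 and 24419.5 UMIs in C1q macrophages but 4090 and 6089.5 UMIs in T cells. The summed T markers (Cd3e, Cd3d, Cd3g, Trbc2, Cd2 and Lck) stood at 5852 and 6371 CPM (the UMIs of those genes over all gene UMIs of the class, on the counts-per-million scale) in the T gate and at 9.55 and 8.27 CPM in C1q macrophages. In the NK gate they stood at 919 and 1129.97 CPM, with the NK markers at 1445 and 1557 CPM. The monocyte gate of replicate 1 also held a B cell marker sum of 16219 CPM.

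Promoter sequences of the members are shown first, because the DNA next to the start sites of these genes carries 2 short motifs that the levels did not choose. RefSeq windows of 300 bases on GRCm38.p6 were matched for 33 of 37 members, in 35 windows. The cell cycle homology region, read here as TTTGAA or TTCGAA on either strand, occurred in 27 of 35 member windows (77.1%) against 19.2% of all 32851 windows. The CCAAT box, on either strand, occurred in 77.1% of member windows against 37.4% of all windows. Both together occurred in 25 of 35 member windows (71.4%) against 7.52% of all. Matches of the motifs can share a base, as they do in the Cdca8 window, and a match describes the sequence only. In the lines below, capitals mark every match, including those whose motif lies on the opposite strand (ATTGG for the CCAAT box). Cdk1 and Top2a are shown because they tracked the S phase genes across cells, Ccnb2 and Cenpa because they ran opposite to them, and Cenpf because it had the largest fall in monocytes.
Cdk1, chr10:69352863-69353162, minus strand: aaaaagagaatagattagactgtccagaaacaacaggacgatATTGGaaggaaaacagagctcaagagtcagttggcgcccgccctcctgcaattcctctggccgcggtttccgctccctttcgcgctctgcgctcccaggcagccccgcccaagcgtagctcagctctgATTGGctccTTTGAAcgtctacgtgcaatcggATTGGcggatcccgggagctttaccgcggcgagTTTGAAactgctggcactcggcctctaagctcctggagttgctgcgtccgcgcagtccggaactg
Top2a, chr11:99024140-99024439, minus strand: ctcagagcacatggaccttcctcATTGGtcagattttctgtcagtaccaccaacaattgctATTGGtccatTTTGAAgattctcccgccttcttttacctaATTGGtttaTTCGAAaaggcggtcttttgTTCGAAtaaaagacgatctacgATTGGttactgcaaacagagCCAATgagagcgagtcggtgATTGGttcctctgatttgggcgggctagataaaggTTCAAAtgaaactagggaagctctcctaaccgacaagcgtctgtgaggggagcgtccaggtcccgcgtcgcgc
Ccnb2, chr9:70421505-70421804, minus strand: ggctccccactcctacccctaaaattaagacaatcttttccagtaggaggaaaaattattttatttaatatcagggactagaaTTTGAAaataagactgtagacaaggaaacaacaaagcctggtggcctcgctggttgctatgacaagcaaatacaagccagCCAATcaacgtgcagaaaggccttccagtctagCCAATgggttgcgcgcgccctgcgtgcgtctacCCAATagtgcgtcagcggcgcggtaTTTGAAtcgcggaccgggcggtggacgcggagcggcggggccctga
Cenpa, chr5:30666636-30666935, plus strand: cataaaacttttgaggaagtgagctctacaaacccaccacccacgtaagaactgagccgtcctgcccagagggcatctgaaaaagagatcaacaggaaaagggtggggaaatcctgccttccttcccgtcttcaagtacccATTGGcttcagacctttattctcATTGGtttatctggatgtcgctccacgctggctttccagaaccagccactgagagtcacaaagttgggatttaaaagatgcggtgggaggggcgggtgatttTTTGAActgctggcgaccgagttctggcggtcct
Cenpf, chr1:189688037-189688336, minus strand: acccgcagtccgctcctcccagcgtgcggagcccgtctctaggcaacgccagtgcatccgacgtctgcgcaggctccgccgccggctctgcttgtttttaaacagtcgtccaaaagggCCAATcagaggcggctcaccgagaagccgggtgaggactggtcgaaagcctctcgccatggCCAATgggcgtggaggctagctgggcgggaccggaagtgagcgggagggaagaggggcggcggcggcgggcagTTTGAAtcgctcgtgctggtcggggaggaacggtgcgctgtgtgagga
Near the start site (from base -100 to base 50), TTTGAA or TTCGAA began in 71.4% of member windows and in 8.59% of all windows. The Ccnb2 window held 3 CCAAT boxes and the Top2a window 6.

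Member transcripts were found in every class but were concentrated in a minority of cells. Each cell was thinned to 3000 UMIs, so that deep and shallow classes could be set side by side, and called member-rich if at least 3 of the 37 genes had a UMI. In C1q macrophages 170 of 2860 cells were member-rich in replicate 1 (5.94%, exact Clopper-Pearson 95% interval 5.11 to 6.87) and 566 of 3062 in replicate 3 (18.5%, 17.1 to 19.9). In conventional dendritic cells the shares were 15.1% (6.75 to 27.6) and 13.2% (6.49 to 22.9). Double-positive cells gave 15% (3.21 to 37.9) and 18.5% (11.1 to 27.9). Ly6c2 monocytes were low in both tumours, at 1.49% (1 of 67 cells, 0.0378 to 8.04) and 2.70% (9 of 333, 1.24 to 5.07). T cells stood at 4.46% (2.46 to 7.37) and 9.92% (7.73 to 12.5), and NK cells at 3.92% (1.08 to 9.74) and 7.92% (4.60 to 12.5). These intervals cover counting error only. Without thinning the shares were 40.8% and 68.8% in C1q macrophages, 20.6% and 28.2% in monocytes and 9.97% and 27.8% in T cells. Thinning left out 67 and 57 T cells but 47 and 22 macrophages. Cells at exactly 3 members numbered 45 and 83 among macrophages, and cells with 2 members numbered 194 and 249. Of the 314 and 645 thinned T cells 9 and 36 were at exactly 3 members, and of the 102 and 202 NK cells 2 and 9. The share thus depends on where the line is drawn. At 5 members the mean of both tumours was 2.65% in T cells, 2.47% in NK cells and 8.88% in macrophages. At 3 members these means were 7.19%, 5.92% and 12.2%, and at 2 members 21.6%, 13.1% and 19.7%.

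**Figure D1:**
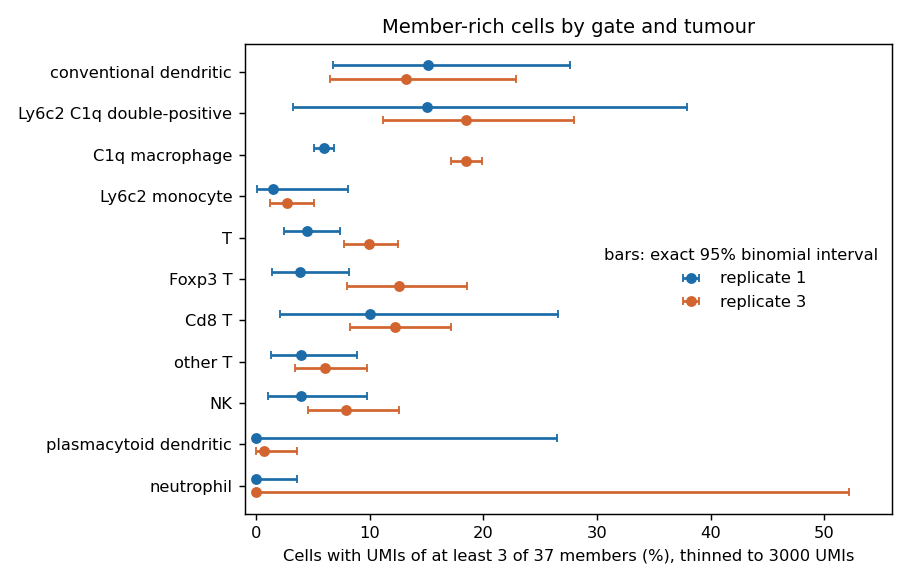
Share of cells (%) with UMIs of at least 3 of the 37 members after thinning each cell to 3000 UMIs, by class and tumour. Points are shares and bars are exact 95% binomial intervals; C1q macrophages sit at 5.94% in replicate 1 and 18.5% in replicate 3, and neutrophils at 0 in both.

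The member UMIs of a class came from few cells. The 5% of C1q macrophages with the most member UMIs held 69.9% of the class's member UMIs in replicate 1 and 54.5% in replicate 3, and 8.12% and 8.72% of its UMIs of all genes. The top 5% of T cells held 60.4% and 73.0% of the T cell member UMIs. Before thinning, 319 macrophages (11.0%) in replicate 1 and 132 (4.28%) in replicate 3 had no member UMI at all.

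Macrophages and T cells had more member transcripts in replicate 3 than in replicate 1, while the sums of dendritic and NK cells were lower there. The 37 members summed to 584 CPM in the macrophages of replicate 1 and to 1466 CPM in those of replicate 3 (exact Poisson 95% intervals 577 to 590 and 1457 to 1474). All 37 of 37 members were higher in replicate 3, by a median ratio of 2.78 and a range of 1.19 (Cenpa, at 104 and 124 CPM) to 3.38. In T cells the sum was 508 and 961 CPM, and 35 of 37 members were higher in replicate 3. By subset, it was 418 and 1318 CPM in Foxp3 T cells and 246 and 1070 CPM in Cd8 T cells, but 684 and 487 CPM in the other T cells. Conventional dendritic cells went the other way, from 1587 to 1166 CPM, with 8 of 37 members higher in replicate 3. The dendritic gate of replicate 1 also held 289 CPM of fibroblast and 242 CPM of carcinoma markers (56.8 and 6.21 CPM in its C1q macrophages), against 7.49 and 158 CPM in replicate 3, and their part in the difference between tumours was not tested. NK cells stood at 781 and 523 CPM, with 9 of 37 members higher in replicate 3, although the member-rich share was the lower one in replicate 1. In that tumour 6 NK cells held 81.6% of the NK member UMIs. Double-positive cells (1318 and 1232 CPM) and monocytes (406 and 468 CPM) differed less. With 1 sample of each tumour these contrasts between tumours carry no test. Barcodes with 10 to 100 UMIs, taken here as free RNA, also gave more in replicate 3 (847 and 1465 CPM), and their part in the macrophage difference was not tested.

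**Figure D2:**
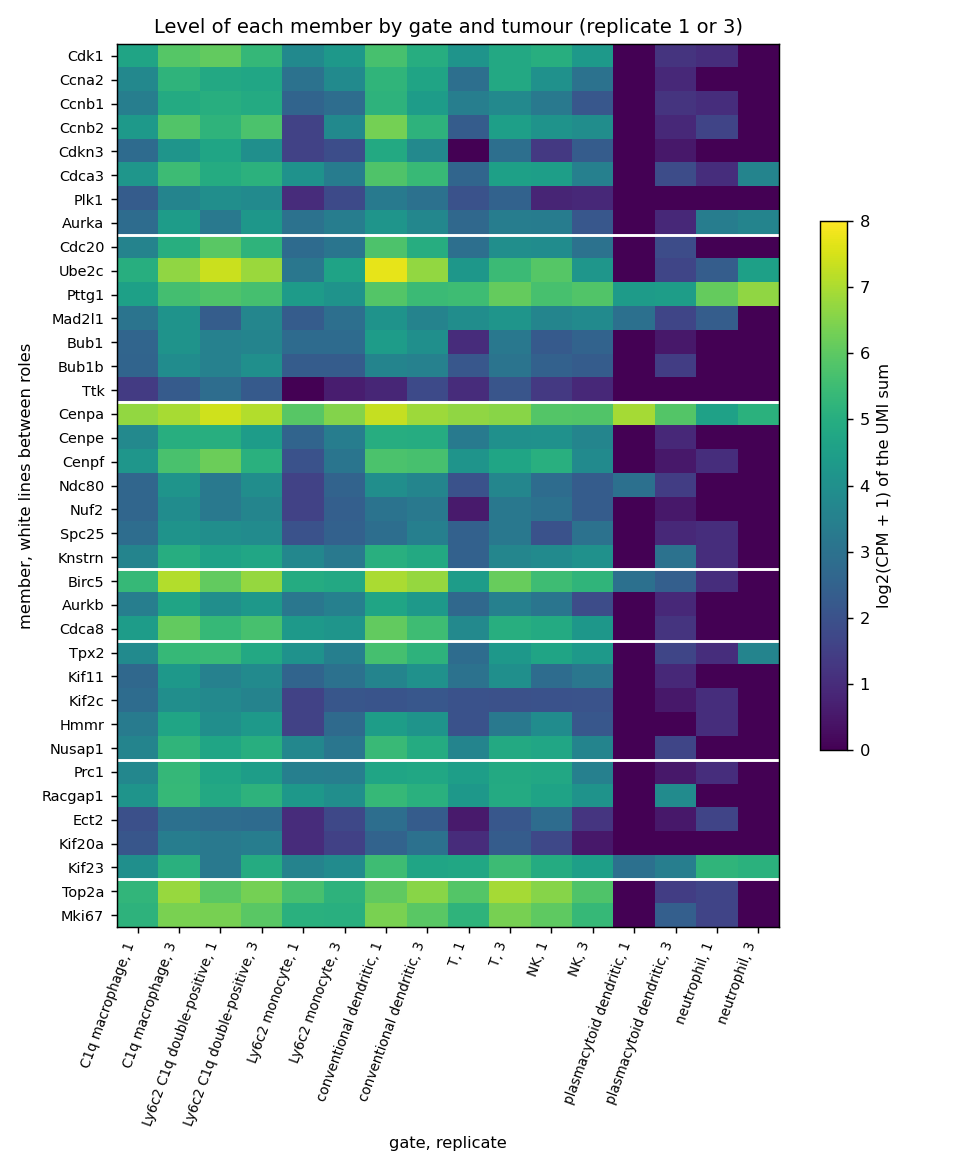
Level of each member as log2(CPM + 1) of the UMIs summed over a class, for 8 classes in replicate 1 and replicate 3; rows are grouped by role. Plasmacytoid dendritic cells and neutrophils are dark in most rows, while Cenpa is bright in every class.

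Regulators of mitotic entry come first in the order of roles. Cdk1, the kinase that drives entry into mitosis, stood in replicates 1 and 3 at 24.4 and 58.0 CPM in C1q macrophages, 66.8 and 39.1 in double-positive cells, 13.0 and 18.2 in monocytes, 50.2 and 30.4 in conventional dendritic cells, 16.7 and 27.4 in T cells and 31.5 and 18.6 in NK cells. Monocytes were the lowest of these classes in both tumours. Ccnb2, a B cyclin, stood at 19.2 and 55.3 CPM in macrophages, 2.01 and 12.8 in monocytes, 78.5 and 34.9 in conventional dendritic cells and 4.05 and 22.1 in T cells. Its highest value was that of the dendritic cells of replicate 1. Ccna2, Ccnb1, Cdca3, Cdkn3, Aurka and Plk1 completed the group. The 8 genes summed to 99.2 and 271 CPM in macrophages and to 53.2 and 74.6 CPM in monocytes.

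Genes of the checkpoint and of APC/C were led by Ube2c, the ubiquitin-conjugating enzyme of APC/C. Ube2c stood at 31.3 and 101 CPM in C1q macrophages, 165 and 111 in double-positive cells, 8.03 and 23.8 in monocytes, 206 and 103 in conventional dendritic cells, 17.7 and 43.2 in T cells and 58.4 and 17.3 in NK cells. Dendritic and double-positive cells were above macrophages in both tumours. Pttg1, securin, was spread differently, at 22.5 and 47.4 CPM in macrophages, 44.5 and 67.5 in T cells, 49.9 and 55.4 in NK cells and 68.0 and 101 in neutrophils. Neutrophils, T cells and NK cells were all above macrophages in their own tumour. The neutrophils of replicate 3 had only 11 UMIs of all 7 genes of this group. Cdc20, which activates APC/C, stood at 11.0 and 31.4 CPM in macrophages and at 53.4 and 30.4 in conventional dendritic cells. The checkpoint kinases Bub1, Bub1b and Ttk and their partner Mad2l1 stayed at or under 20.2 CPM in every gated class of both tumours.

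Centromere genes held the member with the widest expression. Cenpa, the histone H3 variant that marks centromeres, stood at 104 and 124 CPM in C1q macrophages, 169 and 135 in double-positive cells, 60.2 and 91.3 in monocytes, 157 and 112 in conventional dendritic cells, 101 and 94.5 in T cells, 57.6 and 56.3 in NK cells, 120 and 56.8 in plasmacytoid dendritic cells and 23.0 and 33.8 in neutrophils. It was detected in 66.8% and 64.5% of all macrophages, and in 22.1% and 21.0% after thinning. Cenpf, a kinetochore protein of G2, stood at 17.5 and 50.8 CPM in macrophages, 3.01 and 7.67 in monocytes, 52.6 and 49.9 in conventional dendritic cells and 16.7 and 24.8 in T cells. The monocyte values lay below all others named here. The Ndc80 complex members Ndc80, Nuf2 and Spc25, which bind microtubules, ranged from 5.24 to 6.29 CPM in the macrophages of replicate 1 and from 13.9 to 16.6 CPM in those of replicate 3.

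The chromosomal passenger complex, which corrects faulty attachments, was represented by Birc5, Cdca8 and Aurkb. Birc5, also called survivin, stood at 40.4 and 135 CPM in macrophages, 29.1 and 27.6 in monocytes, 125 and 105 in conventional dendritic cells, 20.2 and 69.7 in T cells and 44.6 and 36.8 in NK cells. Cdca8, borealin, stood at 20.3 and 67.1 CPM in macrophages and 12.7 and 31.2 in T cells. Among the spindle genes, Tpx2, which seeds microtubules, stood at 13.2 and 40.0 CPM in macrophages and 6.07 and 18.1 in T cells, and Nusap1, which bundles them, at 11.3 and 36.4 and at 11.1 and 27.9 CPM.

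Cytokinesis genes included Racgap1 and Prc1 of the central spindle. Racgap1 stood at 16.7 and 40.0 CPM in macrophages and 18.2 and 28.8 in T cells. Prc1 stood at 12.1 and 39.4 CPM in macrophages and 21.3 and 28.1 in T cells. The T cell values of both genes were above the macrophage values in replicate 1 and below them in replicate 3. Kif23, a motor of the central spindle, was at 36.6 and 33.8 CPM in neutrophils against 14.9 and 33.0 CPM in macrophages. In the 27 neutrophils of replicate 3 the whole group of 5 cytokinesis genes had only 3 UMIs. Top2a, which untangles chromosomes, stood at 37.5 and 108 CPM in macrophages, 50.2 and 34.7 in monocytes, 57.2 and 120 in T cells and 93.0 and 54.1 in NK cells. Mki67, the antigen Ki-67, stood at 35.1 and 83.8 CPM in macrophages, 33.1 and 32.2 in monocytes, 35.9 and 80.5 in T cells and 63.0 and 40.3 in NK cells. For Top2a the monocyte and macrophage levels overlapped across the tumours, while both Mki67 values of monocytes lay below both macrophage values.

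Among the gated classes, leaving out plasmacytoid dendritic cells, and by the mean of both tumours, 19 members had their highest level in conventional dendritic cells, 13 in double-positive cells, 3 in T cells, 1 in C1q macrophages and 1 in neutrophils. Cells that met no gate were not ranked, and for many members they stood higher still, as for Top2a (128 CPM, against 88.8 CPM in T cells). These orders are descriptions, since neighbouring classes often overlapped across the tumours. In replicate 1, 3 of 53 dendritic cells held 57.6% of the member UMIs of their class, and 1 of 20 double-positive cells held 85.1%. In replicate 3 the members summed to 1166 CPM in dendritic and 1232 CPM in double-positive cells, below the 1466 CPM of C1q macrophages.

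Ly6c2 monocytes had less of these transcripts than C1q macrophages, and 10 members fell. UMIs were summed per class and tumour and compared with edgeR's quasi-likelihood test, with the tumour as a block. The 10 that fell were called against a background of 5% of all genes called lower, 4.18% higher and 9.18% in either direction, and no member was called higher. Cenpf (17.5 and 50.8 CPM in macrophages, 3.01 and 7.67 in monocytes) fell by 2.43 on the log2 scale (SE 0.58, adjusted p = 0.0177 by edgeR's quasi-likelihood test). Its monocyte values lay below both macrophage values. Kif20a, a motor of cytokinesis, fell by 2.13 (SE 0.58, edgeR adjusted p = 0.0401) and Ccnb2 by 2.03 (SE 0.59, edgeR adjusted p = 0.0477). Plk1, a kinase of mitotic entry, fell by 1.98, the spindle protein gene Hmmr by 1.92, the microtubule depolymerase gene Kif2c by 1.86 and Ccnb1 by 1.73. Birc5, Spc25 and Cenpe, a kinetochore motor gene, fell by 1.65, 1.63 and 1.51. Plk1 stood at 4.07 and 11.3 CPM in macrophages and at 1.00 and 2.49 in monocytes, and Kif2c at 6.14 and 14.3 CPM and at 2.01 and 3.45 CPM. In both genes the monocyte values lay below both macrophage values. The monocytes of replicate 1 held 996868 UMIs of all genes, so their CPM values are close to UMI counts and the lowest rest on few UMIs. Of their 405 member UMIs, 72.3% came from 4 of 68 cells. Cdkn3 had a log2 difference of -2.31 that did not pass (edgeR adjusted p = 0.089).

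All 36 members tested had a negative estimate in monocytes, with a median of -1.41 against -0.08 over all 10679 genes tested. Ttk did not pass the filter on low counts. Without the tumour block only Cenpf passed (1 call), DESeq2 called 5, and subtracting free RNA left Cenpf, Spc25 and Kif2c (3 calls). Calls over all genes changed too, from 534 lower in the main fit to 171, 595 and 290 lower in these alternatives. Leaving out cells with stromal, keratin or B cell markers left 4, Cenpf, Spc25, Kif2c and Kif20a. Across tumours the median difference of the members on log2(CPM + 1) was -0.74 in replicate 1 and -1.64 in replicate 3.

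T cells also had lower estimates than C1q macrophages, but the calls depended on how shallow cells were treated. In this comparison 49.5% of all genes were called in either direction, 23.2% higher and 26.3% lower. Of the 36 members tested, 7 fell and none rose, a share below that background in the main fit. At an unadjusted p under 0.05, 1 was higher and 17 were lower. That order against all genes depended on the processing. With cells thinned to 3000 UMIs, 12 of 20 members were called lower and 2 higher. Of all 7006 genes tested there, 1928 were called lower and 1793 higher, so the members' share was above that of all genes. Kif2c (6.14 and 14.3 CPM in macrophages, 3.04 and 2.92 in T cells) fell by 1.94 on the log2 scale (SE 0.38, edgeR adjusted p = 0.000785). Hmmr (9.14 and 24.8 CPM in macrophages, 3.04 and 8.39 in T cells) fell by 1.52 (edgeR adjusted p = 0.0213). Both T cell values of these genes lay below both macrophage values. Ccnb2, the spindle-pole gene Knstrn, Kif20a, Aurkb and Spc25 fell by 1.45, 1.34, 1.31, 1.14 and 0.89. Pttg1 (0.59, edgeR adjusted p = 0.0823), Kif23 (0.48), Mad2l1 (0.30) and Top2a (0.22) had positive log2 estimates that did not pass.

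In an alternative, cells had to reach a depth set by the largest barcodes (5701 UMIs in replicate 1 and 9218 in replicate 3). Then 94 and 176 T cells remained and the direction of the calls turned. Of 36 members, 4 were higher in T cells and none lower: Top2a (log2 difference 1.05), Kif11 (0.93), Mad2l1 (0.92) and Pttg1 (0.81). Of all 10301 genes tested, 2303 were called higher and 2450 lower, so members were called higher at a lower rate than all genes. The median member estimate was only 0.07, with 22 of 36 positive. The share of member-rich T cells was then 9.57% and 22.2%. DESeq2 and the fit without the block each called 2 members lower, Kif2c and Knstrn in both, where 2462 and 2088 of all 10679 genes were called lower.

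**Figure D3:**
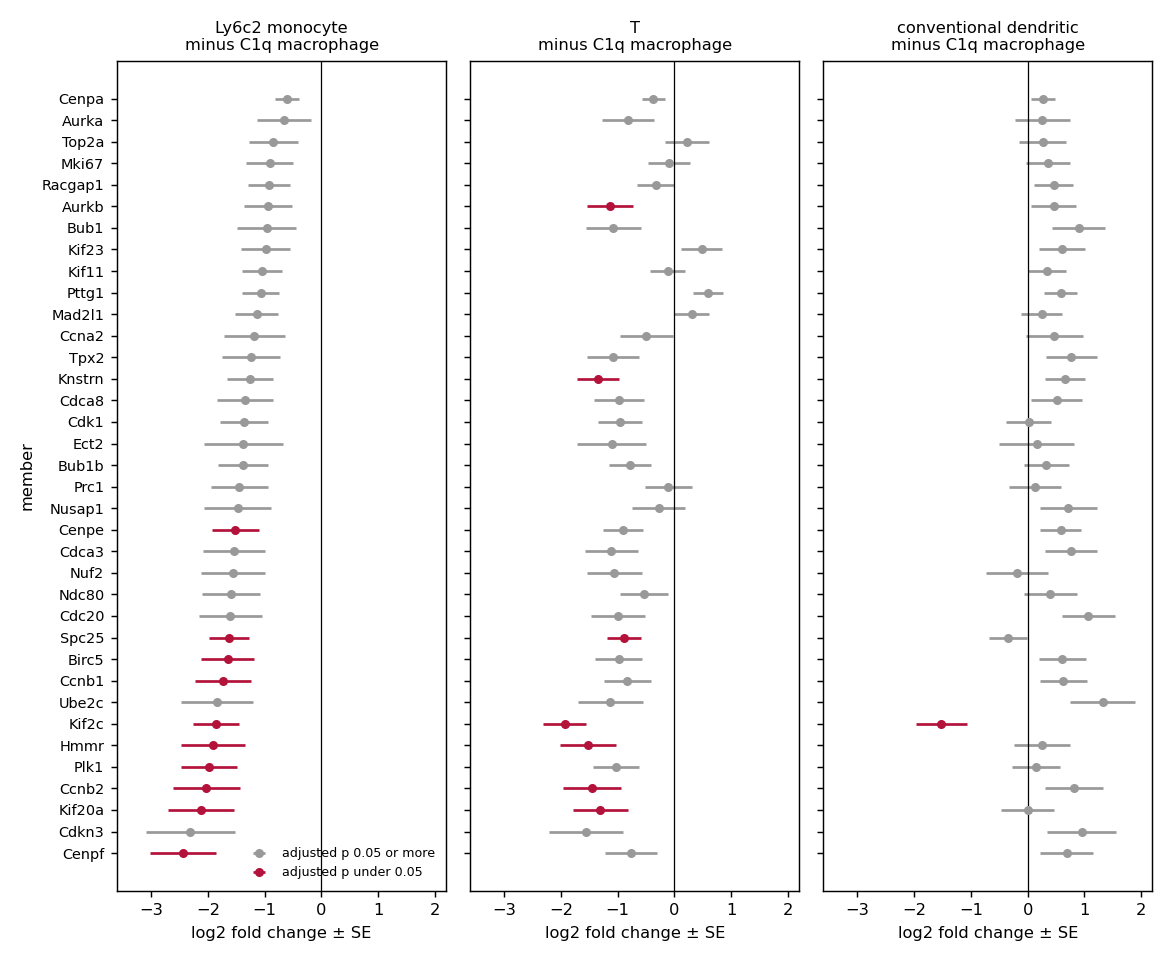
Log2 fold change of each of the 36 tested members with its standard error, for monocytes, T cells and conventional dendritic cells against C1q macrophages; red points passed an adjusted p of 0.05. All monocyte points lie left of 0, and Kif2c is the only red point in the dendritic panel.

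Conventional dendritic cells had higher estimates than C1q macrophages for 32 of 36 members, and none of them rose by the test. The median estimate was 0.46 against -0.09 over all genes, and 21.7% of all genes were called in either direction, 9.6% higher and 12.1% lower. Ube2c, at 206 and 103 CPM against 31.3 and 101 CPM, had the largest estimate (1.32, SE 0.57, edgeR adjusted p = 0.124). Cdc20 followed (1.07, SE 0.46, edgeR adjusted p = 0.129). Kif2c was the only member called, and it fell by 1.52 (SE 0.45, edgeR adjusted p = 0.0253), from 6.14 and 14.3 CPM in macrophages to 3.24 and 3.49 CPM in dendritic cells. Its dendritic values rest on 4 and 7 UMIs. The call was lost with DESeq2, without the block, with the depth-based cell filter, with doublets kept and with a C1q limit of 20. The per-tumour medians had opposite signs, 1.28 in replicate 1 and -0.39 in replicate 3. DESeq2 also moved the balance of all called genes, from 1025 higher and 1288 lower to 1321 higher and 1086 lower.

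Double-positive cells, which carried both the monocyte and the macrophage signal, did not differ detectably from C1q macrophages. None of 36 members was called by edgeR (0 at an unadjusted p under 0.05, and 0 with DESeq2), where 0.328% of all genes were called in either direction, 0.243% higher and 0.0843% lower. The median estimate was 0.07, and the per-tumour medians were 0.94 in replicate 1 and -0.25 in replicate 3. The 20 cells of replicate 1 limit this comparison, since 1 cell held 85.1% of their member UMIs.

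NK and T cells gave no member call in edgeR, where 12.4% of all genes were called in either direction, 5.3% higher and 7.11% lower (0 higher and 2 lower at an unadjusted p under 0.05, and 0 with DESeq2). Plk1, at 0.768 and 0.886 CPM in NK cells and 3.04 and 4.74 CPM in T cells, had the largest difference (-2.17, SE 0.81, edgeR adjusted p = 0.107). With the depth-based filter Cenpa was called lower in NK cells (log2 difference -0.96, edgeR adjusted p = 0.0211). The median difference was 0.79 in replicate 1 and -0.90 in replicate 3.

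Within T cells, Cenpa was higher in Foxp3 cells than in Cd8 cells. Foxp3 marks regulatory T cells, and Cd8a or Cd8b1 marks cytotoxic T cells. Cenpa stood at 131 and 169 CPM in Foxp3 cells and at 60.5 and 60.2 CPM in Cd8 cells, so the subsets did not overlap. It rose by 1.18 on the log2 scale (SE 0.25, adjusted p = 0.00735 by edgeR's quasi-likelihood test) and was called in all 11 alternatives run, with adjusted p from 0.00153 to 0.0317. It was the only call among 35 members tested, against 6.99% of all genes called in either direction, 3.91% higher and 3.08% lower. The members were thus called at a lower rate than all genes. The whole set was not shifted alike. Its median estimate in the fit was -0.23, while the plain per-tumour ratios gave 0.34, so the signs differ. Cd8 cells of replicate 1 were only 32 and held 57 member UMIs. Member-rich shares were 3.85% and 12.6% in Foxp3 cells, 10.0% and 12.2% in Cd8 cells and 3.91% and 6.02% in other T cells.

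The spatial codes gave no call among the members, as among all genes tested. Macrophages were split within each tumour at the outer parts of their ratio of code ZC1 to code ZC5, and the labels do not say which region a code marks. Member sums on the ZC1 side were 581 and 1514 CPM and on the ZC5 side 626 and 1513 CPM, with 544 and 1375 CPM in between. None of 37 members was called by edgeR (0 at an unadjusted p under 0.05, and 0 with DESeq2), and 0% of all 11221 genes tested were called. Member-rich shares were 6.04% and 19.1% on the ZC1 side and 6.77% and 19.4% on the ZC5 side.

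Within C1q macrophages most members were carried by the same cells. Cells with UMIs of at least 10 other members made up 5.44% to 5.71% of macrophages in replicate 1 and 19.7% to 20.8% in replicate 3, depending on the member set aside. They held 94.3% and 98.3% of all Hmmr UMIs, 94.6% and 97.7% of Nusap1 UMIs, 93.4% and 97.4% of Ccna2 UMIs and 90.3% and 96.2% of Birc5 UMIs. Plk1 was found in 0.584% and 0.210% of macrophages with at most 1 other member, and in 39.4% and 45.6% of those with at least 10. These counts were not thinned, and macrophages with more members were deeper. Median depth was 22249 and 27418 UMIs with at least 3 members, against 13758 and 16422 UMIs with none. The part of depth in these detection rates was not tested. In the cells with at least 10 others the following members had similar levels in both tumours. Cdk1 stood there at 178 and 179 CPM, Cenpa at 305 and 305, Ccna2 at 130 and 121, Top2a at 368 and 358 and Mki67 at 292 and 265 CPM. Because those cells were picked by detection of the other members, the selection can itself make such levels alike. How the tumours differ cannot be read from them.

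Cenpa, Pttg1, Kif2c and Kif23 were less bound to those cells. Only 25.4% and 68.8% of Cenpa UMIs came from macrophages with at least 10 other members, and Cenpa was detected in 62.1% and 53.6% of macrophages with at most 1 other member. Its level in the remaining macrophages was 85.1 and 53.5 CPM, against 0.571 and 0.601 CPM for Hmmr. Pttg1 had 47.8% and 74.0% of its UMIs in the cells with at least 10 others and was detected in 15.1% and 26.1% of those with at most 1. Kif2c had 43.5% and 67.7% there, and Kif23 53.2% and 83.4%. In T cells with at most 1 other member, Cenpa was detected in 26.9% and 30.8%, Pttg1 in 16.1% and 27.4% and Kif23 in 9% and 18.4%. Outside the cells with at least 10 others, Kif2c stood at 3.81 and 6.53 CPM in macrophages and at 0.527 and 0.627 CPM in T cells, and this difference was not tested.

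**Figure D4:**
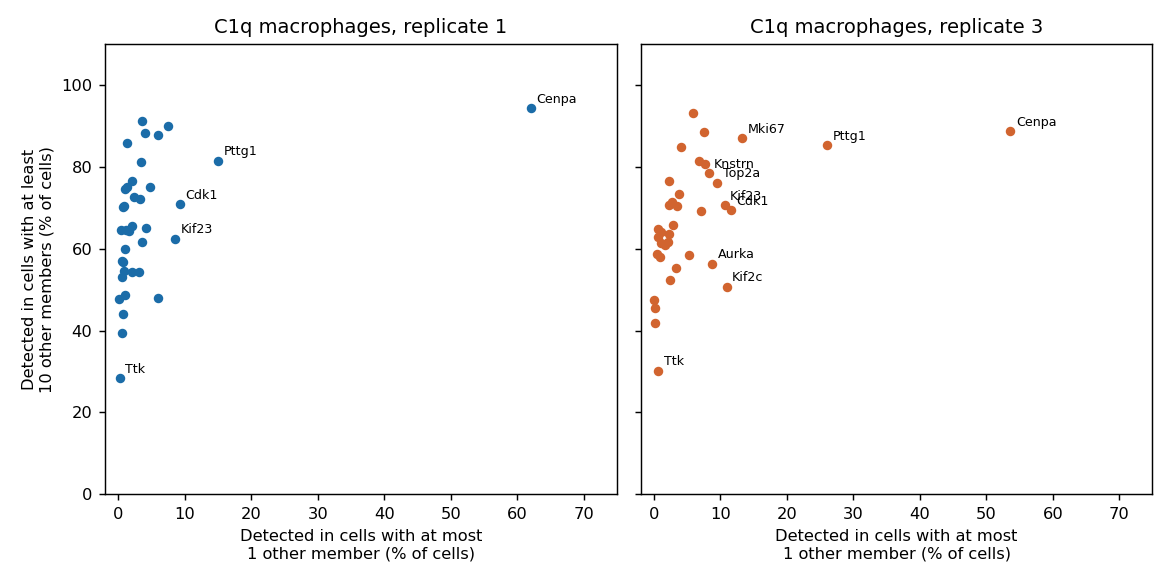
Detection of each member (% of cells, without thinning) in C1q macrophages with at most 1 other member (horizontal axis) and with at least 10 other members (vertical axis), for replicate 1 and replicate 3. Cenpa lies far to the right at 62.1% and 53.6%, Pttg1 follows at 15.1% and 26.1%, and the remaining members lie at or under 13.3% on the horizontal axis.

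Among macrophages with at least 10 members (166 and 643 cells), the members fell into an order against S phase, the stage of DNA synthesis that comes before G2. The correlation of each member with the summed S phase genes across cells, on log2 of UMIs scaled to 10000 per cell, was highest for Top2a (0.491 and 0.560) and Cdk1 (0.485 and 0.568). Aurkb (0.361 and 0.411), Spc25 (0.333 and 0.418), Ndc80 (0.345 and 0.278), Kif11 (0.313 and 0.373) and Mad2l1 (0.282 and 0.408) followed. Plk1, Cdca8 and Kif2c were near 0. Ccnb2 had the lowest value (-0.673 and -0.580), then Cenpa (-0.514 and -0.452), Cdkn3 (-0.427 and -0.442), Pttg1 (-0.461 and -0.299) and Knstrn (-0.360 and -0.378). Kif11, a motor that separates spindle poles, thus stood with the kinetochore genes Spc25 and Ndc80, while Cenpa and Knstrn stood at the other end. These values describe cells that share a library and differ in depth, and they carry no test.

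**Figure D5:**
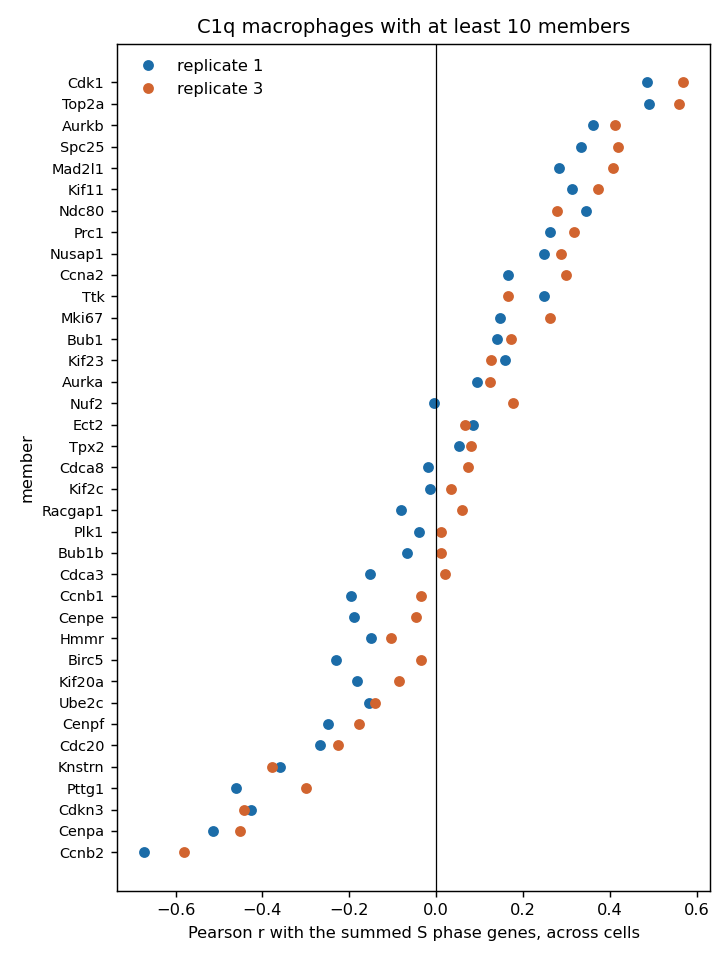
Pearson correlation of each member with the summed S phase genes across C1q macrophages that held at least 10 members (166 cells in replicate 1, 643 in replicate 3). Cdk1 and Top2a lie at the right end, Ccnb2 at -0.673 and -0.580 at the left end, and the tumours give similar positions.

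Pairs of members were correlated across the same cells and on the same values, so they are not a separate test of that order. Of 666 pairs, 663 had a positive correlation across those cells in both tumours, with medians of 0.509 and 0.553. The closest pair by the lower of both values was Cdk1 with Top2a (0.857 and 0.845), then Nusap1 with Prc1 (0.841 and 0.859) and Nusap1 with Top2a (0.840 and 0.844). Ube2c went with Cenpf (0.807 and 0.815), Ccnb2 with Cenpa (0.803 and 0.838) and Birc5 with Cdca8 (0.794 and 0.830). Ccnb2 was in 6 of the 8 weakest pairs, the lowest being with Cdk1 (-0.033 and -0.051) and with Top2a (-0.013 and -0.014).

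Member-rich macrophages also carried more of the wider division programme. After thinning, 80 other mitosis genes summed to 4882 and 6299.8 CPM in member-rich macrophages and to 821 and 877 CPM in those with no member. The 39 S phase genes summed to 1884 and 2279.7 CPM against 369 and 538 CPM. Rrm2, a subunit of ribonucleotide reductase, stood at 108 and 117 CPM against 0.611 and 2.11 CPM, and Stmn1, which destabilises microtubules, at 725 and 843 CPM against 22.8 and 37.8 CPM. The 14 cell cycle brakes did not follow this pattern, at 1278 and 1199.7 CPM against 1789 and 1179 CPM. The same macrophages were deeper before thinning, with medians of 26540 and 35026 UMIs against 18751.5 and 23305. Macrophage markers summed to 15541 and 12470.0 CPM against 16415 and 19092 CPM, T markers to 9.80 and 7.66 CPM against 9.98 and 7.51 CPM, and collagen and Dcn transcripts to 47.1 and 15.9 CPM against 43.8 and 19.2 CPM. Neutrophil markers stood at 243 and 186 CPM against 1506 and 27.4 CPM.

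In monocytes 13 of 70 other mitosis genes fell and none rose against macrophages, where 5% of all genes were called lower and 4.18% higher, led by Aspm (fell by 3.53), Ncapg (fell by 2.63) and Cenpp (fell by 2.08). Of 37 S phase genes tested there, 12 fell, among them Tk1, Chaf1b, Rrm2 and Clspn with log2 changes of -1.61, -1.54, -1.48 and -1.39, and of 13 brakes 1 fell, Cdkn2c (-1.64). In T cells 7 other mitosis genes rose and 11 fell, 7 S phase genes rose and 2 fell, and 8 of 13 brakes rose and 1 fell, with Cdkn2b at 4.36, Cdkn2a at 4.17, Rbl2 at 2.58 and Cdkn1a at -2.05. With 49.5% of all genes called in that comparison (23.2% higher, 26.3% lower), the other mitosis and S phase genes were called at a lower rate than all genes. In conventional dendritic cells 4 of 70 other mitosis genes rose, Lmnb1, Cks1b, Cenpq and Anp32e, and 1 S phase gene fell, Cdt1 (-1.47). Of 13 brakes 4 rose there, Cdkn2b (3.73), Cdkn1b (1.35), Btg2 (1.13) and E2f4 (0.70), and none fell. Of all genes, 9.6% were called higher and 12.1% lower in that comparison, so the share of other mitosis genes that rose was below that of all genes. Median log2 changes of the other mitosis genes were -1.24 in monocytes, -0.27 in T cells and 0.33 in dendritic cells, against -0.08, -0.04 and -0.09 over all genes.

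Neutrophils and plasmacytoid dendritic cells marked the floor of the measurement. Members summed to 165 and 225 CPM in neutrophils and to 167 and 150 CPM in plasmacytoid dendritic cells, below every other class in both tumours and below the free RNA of the same libraries (847 and 1465 CPM). Of the 37 members, 21 and 7 had a UMI in neutrophils. Pttg1, Kif23 and Cenpa were the most abundant there. Top2a stood at 2.09 and 0 CPM and Mki67 at 2.09 and 0 CPM in neutrophils. In plasmacytoid dendritic cells Top2a stood at 0 and 1.76 CPM and Mki67 at 0 and 4.40 CPM. After thinning, 0 of 100 neutrophils in replicate 1 were member-rich, which allows a share of up to 3%. Only 5 neutrophils of replicate 3 could be thinned. In replicate 3, 1 of 153 plasmacytoid dendritic cells was member-rich (0.654%). Neutrophils were shallow, with medians of 2578.5 and 2580 UMIs, but plasmacytoid dendritic cells were deep enough for 12 and 153 to be thinned.

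No member overlapped another gene on its own strand in the GENCODE M21 annotation. On the opposite strand Ccna2 overlapped Exosc9, Cdc20 Elovl1, Cdca8 9930104L06Rik, Kif20a Cdc23, Knstrn Gm14091, Nusap1 Oip5, Ube2c Tnnc2, and Prc1 both Rccd1 and 6330403N20Rik, and how reads on opposite strands were counted is not given in the sources used here.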

How the data were processed

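Each tumour was measured once by droplet 3' RNA sequencing (10x 3' v3, per the labels' protocols). The deposited files hold raw UMI counts per gene and barcode, which the authors had not normalised, and per the submitters' processing notes they came from Cell Ranger 4.0 and mm10. For the annotation release and the use of strand in counting, the sources used here say nothing. Gene UMIs totalled 89040909 and 170328781, so low members are less precise in replicate 1. Exact intervals and limits at a count of 0 (3 counts) cover counting error only.

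Barcodes with at least 1000 UMIs, 500 genes and at most 10% mitochondrial UMIs were kept (4818 and 6734). Doublet calling with scrublet found 0 doublets in either tumour and so had not worked; instead the top 186 and 363 scores were removed (0.8% per 1000 cells). Called cells shared 9 barcode sequences between libraries. Cells were assigned by marker gates, not by clustering or by the authors' annotation. UMIs were summed per class and tumour, and CPM values divide by all gene UMIs of the class.

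Every class that held 20 cells or more in both tumours was fitted jointly with edgeR 4.0.16 (quasi-likelihood F-test, TMM, filterByExpr, limma 3.58.1, R 4.3.3), with the tumour as a block. In the main fit all these classes, neutrophils included, shared a common estimate of the spread. Benjamini-Hochberg adjustment ran over all tested genes, with a threshold of 0.05. Pairing comes from the tissue, since the classes compared were cells of the same tumours. Over 21 pairs of classes, differences between tumours correlated across 9954 genes at 0.0868 to 0.571. DESeq2 1.42.0 was an alternative. The script was tested on simulated data. Of the members, the 2 with most UMIs in each role, Mki67 and Top2a have full values, and called members are named by size (at most 15). Of the other lists, at most 4 called genes by size were taken. Members, lists and gates were chosen with earlier results of these data known. Descriptive steps used Python 3.11.15, scanpy 1.11.5, numpy 2.4.6, scipy 1.17.1 and matplotlib 3.10.9. Promoters came from RefSeq (GRCm38.p6).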

Additional observations from a re-analysis of the deposited data

Results flagged for a closer look

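Member transcripts were also found outside the gated classes. Cells that met no gate summed to 890.1 CPM of members in replicate 1 (775 cells) and 2345.3 CPM in replicate 3 (1698 cells), above every gated class of replicate 3. Most of those in replicate 3, 1201 cells, had Csf1r with low C1q and neither Cd3e nor Ncr1, and 23.0% of them were member-rich after thinning (20.6 to 25.5). The 273 such cells of replicate 1 had a share of 9.20% (5.98 to 13.4). Ungated cells with stromal, keratin or B cell markers summed to 2379.6 and 3440.5 CPM of members (40 and 46 cells).

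Barcodes with 10 to 100 UMIs, which no class used, summed to 847.2 CPM of members in replicate 1 and 1464.6 CPM in replicate 3, above the limit that a count of 0 allows. Subtracting 10% of each class's sum with this profile is 1 of the alternatives below.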

How the results depend on the processing

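Across results and alternatives, 81 values were counted as kept. They include counts of 0 calls that stayed at 0 for double-positive cells, NK against T cells and the code sides. A count of 0 cannot fall. The single call in Foxp3 against Cd8 T cells is also among them, so this total says little about the larger counts. Counts of calls were kept if they did not change direction and stayed near the main count (monocyte calls from 7 to 14). Shares were kept if they moved by no more than the standard deviation between the 2 tumours. That limit is wide (8.87 percentage points for macrophages, with a main share of 12.2%). For medians with 1 tumour left out, it came from the same 2 values, so hardly anything but a change of sign could count. Of the rest, 15 shares moved, 13 counts of calls fell, 5 counts rose and 6 values changed direction. In monocytes against C1q macrophages the 10 calls became 5 with DESeq2, 33 with no filter on low counts and 1 with no replicate block. They became 3 with free RNA subtracted and 4 with stromal, keratin or B cell marker cells left out, an alternative chosen after seeing the data. Of all genes, 534 were called lower in the main fit. That number was 595, 1001, 171, 290 and 572 in these alternatives, in the same order. In T cells the 7 calls became 2 with DESeq2, 24 with no filter, 2 with no replicate block, 2 with free RNA subtracted and 12 with doublets kept. Of all genes, 2810 were called lower in the main fit, and 2462, 3483, 2088, 2427 and 2881 in these alternatives. With cells thinned to 3000 UMIs, 14 of 20 members tested were called (12 lower and 2 higher). There 1928 of 7006 genes were called lower and 1793 higher. Calls reversed to 4 higher with the depth-based cell filter, where 2303 of 10301 genes were called higher. For NK against T cells the depth-based filter gave 1 lower call among 36 members, where 692 of 10301 genes were called lower. In conventional dendritic cells the 1 call became 0 with DESeq2, with no replicate block, with the depth-based filter, with doublets kept, with thinning and with C1q at 20. It became 4 of 37 members with no filter (3 higher), where 1180 of 19974 genes were called higher and 1703 lower. The causes were not tested. The block changed no other call. With 1 tumour left out no residual degrees of freedom remain, so only the median log2 ratio of the members was recomputed. It ranged from -1.64 to -0.74 for monocytes, -0.25 to 0.94 for double-positive cells, -0.94 to -0.52 for T cells, -0.90 to 0.79 for NK against T cells, -0.39 to 1.28 for dendritic cells, 0.18 to 0.52 for Foxp3 against Cd8 T cells and -0.073 to 0.00064 for the code sides. Mean member-rich shares without thinning were 54.8% in macrophages, 48.4% in double-positive cells, 24.4% in monocytes, 46.1% in dendritic cells, 18.9% in T cells and 26.6% in NK cells. At 2 members they were 19.7% in macrophages and 21.6% in T cells, so the order of these classes depended on the line. Double-positive cells stood at 21.6% there, monocytes at 7.79%, dendritic cells at 19.6% and NK cells at 13.1%. At 5 members the mean shares were 8.88% in macrophages and 8.48%, 2.65% and 2.47% in double-positive, T and NK cells. With the depth-based filter T cells stood at 15.9%. C1q at 20 left too few double-positive cells for a fit. Depth limits the shallow T cells and neutrophils and every class with under 100 cells.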
